A study of Mus musculus with 2 samples.

Results

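Galectin-3 high melanoma cells were taken as the cell barcodes with at least 3 unique molecular identifiers (UMIs, counted RNA molecules) of Lgals3, the gene of galectin-3, and fewer than 3 UMIs of S100a4 and S100a6 together. Only barcodes with at least 1000 detected genes and at most 15% mitochondrial UMIs were considered, which were 9644 of the 15961 barcodes in the RNA library. Of these, 176 cells (1.82%) met the rule, and they are called Lgals3-high cells here. They were compared over all other genes with the 8923 filtered barcodes that held 0 Lgals3 UMIs, the Lgals3-0 cells. The cells were chosen by their UMIs of Lgals3, S100a4 and S100a6, so the values of these genes are given as a description, and the genes were removed from every comparison of genes.

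The cells came from the mouse melanoma line B16F10 and were recovered from tumours in 3 sources: lungs of wild-type mice (WT lung), lungs of perforin-deficient mice (Prf1-/- lung) and knees of perforin-deficient mice (Prf1-/- bone). Perforin is the protein with which cytotoxic T cells and NK cells open pores in their targets, and the series concerns mechanical and immune control of where metastases settle. Live tumour cells were sorted as positive for GFP and negative for CD45 and DAPI. A hashtag antibody marked each of the sources, which were pooled for a single 10x 3' droplet run with 1 RNA library and 1 hashtag library. The age and sex of the mice, the time after tumour cell transfer and the number of mice per source are not given in the sources used here, and the lung and knee tissues were digested for different times. Each condition was therefore 1 hashtag group without a replicate, so that shares and levels were not tested between conditions.

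Galectin-3 is a lectin that binds beta-galactosides through a carbohydrate recognition domain and oligomerises through its flexible N-terminal tail. It is made in the cytosol, leaves the cell by a route that bypasses the endoplasmic reticulum, cross-links glycosylated receptors such as integrins on the cell surface, and gathers on damaged lysosomes and phagosomes inside the cell. In melanoma it has been studied in adhesion, invasion and the response to T cells, and it is also abundant in macrophages and many epithelial cells.

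A hashtag group was assigned where the largest of the 3 hashtag counts was at least 2 times the second. Of the filtered cells, 3374 were listed in the hashtag library, and 242 of those had no clear hashtag. The other 6270 filtered cells were not listed there, so their source is unknown. The Lgals3-high cells comprised 41 cells of WT lung, 19 of Prf1-/- lung, 0 of Prf1-/- bone, 9 with an unclear hashtag and 107 not listed. Their median depth was 2818.5 UMIs, against 2556 in the Lgals3-0 cells. The medians were 3638 and 2892 within WT lung, and within Prf1-/- lung they were 2763 and 2819.

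The melanoma label was checked against markers, which the Lgals3-high cells carried. Of 12 melanoma markers (Pmel, Mlana, Dct, Tyr, Tyrp1, Mitf, Sox10 and others), a median of 8 was detected per Lgals3-high cell and a median of 8 per Lgals3-0 cell, and 175 of the 176 Lgals3-high cells had at least 3. The summed level of these markers was 13468 CPM (UMIs of a gene per 1000000 UMIs of its class) in the Lgals3-high cells and 14220 CPM in the Lgals3-0 cells. Macrophage and monocyte markers, whose cells also express galectin-3, summed to 9 UMIs in 9 of the 176 cells (16.3 CPM, against 9.31 CPM), and 11 of their 14 genes were at 0, including Adgre1, Csf1r, C1qa and Mrc1. Cd68, a lysosomal glycoprotein, held 7 of the 9 UMIs, with a ratio to the Lgals3-0 cells of 3.78 (1.48 to 8.14), and its part in the other results was not tested. Alveolar and airway epithelial markers summed to 10.8 CPM against 54.3 CPM, all of it from Sftpc, with the other 10 genes at 0. In WT lung the same epithelial sum was 13.1 CPM in the Lgals3-high cells and 225 CPM in the Lgals3-0 cells. Ptprc, the gene of CD45, had 0 UMIs in the Lgals3-high cells, and dendritic, neutrophil, T and NK, and mesothelial markers were all at 0. Endothelial markers summed to 86.7 against 67.6 CPM, all of it from Eng in the Lgals3-high cells, osteoclast markers to 30.7 against 20.5 CPM, chondrocyte markers to 30.7 against 20.7 CPM and fibroblast markers to 3.61 against 25.7 CPM. B cell, erythroid and osteoblast markers had 1 UMI each. Without the cells that held at least 2 UMIs over 14 surfactant, macrophage and pan-immune genes (2 of the 176), 125 genes lay past 1.5-fold higher and 72 lower, against 125 and 73 with them.

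Among the 176 cells, 59 had exactly 3 Lgals3 UMIs, 22 had 4, and 95 had 5 or more, with a median of 5 and a maximum of 27. At the limits of the rule, the 59 cells with exactly 3 UMIs had a summed Lgals3 level of 985 CPM, and the 100 cells with exactly 2, just outside it, had 657 CPM. The S100 limit removed 54 of the 230 cells with at least 3 Lgals3 UMIs (23.5%), and the same limit would have removed 553 of the 8923 Lgals3-0 cells (6.20%). The 28 cells with S100a4 plus S100a6 at 2 UMIs lay just inside that limit and the 14 cells at 3 UMIs just outside.

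Lgals3 RNA was concentrated in few cells, more of them in lung than in bone. The summed Lgals3 level over all filtered cells was 113 CPM in WT lung (95% Poisson interval 102 to 124), 54.6 CPM in Prf1-/- lung (48.1 to 61.7) and 13.9 CPM in Prf1-/- bone (8.21 to 21.9). These intervals, and all others given here, cover counting error only. Cells with 3 or more Lgals3 UMIs, S100 genes disregarded, held 74.5% of the Lgals3 UMIs of WT lung and 73.6% of those of Prf1-/- lung. In Prf1-/- bone there were 18 Lgals3 UMIs in 10 cells, and 8 of them lay in the single bone cell with 3 or more, which the S100 limit left out. The variance of Lgals3 UMIs over cells was 7.51 times their mean in WT lung, 6.24 times in Prf1-/- lung and 4.19 times in bone. All sources shared 1 droplet run, bone cells had a median of 3107 UMIs, and the part of free RNA in the Lgals3 counts was not tested. Any Lgals3 UMI was found in 11.2% of WT lung cells (median depth 2909 UMIs), 5.86% of Prf1-/- lung cells (2826.5 UMIs) and 2.60% of bone cells.

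The share of Lgals3-high cells was 41 of 1227 in WT lung (3.34%, exact Clopper-Pearson 95% interval 2.41 to 4.51), 19 of 1520 in Prf1-/- lung (1.25%, 0.754 to 1.95) and 0 of 385 in Prf1-/- bone (0 to 0.954). By the limit of 3 counts, 0 of 385 cells allows a share of up to 0.779%. It was 107 of 6270 (1.71%, 1.40 to 2.06) in the cells not listed in the hashtag library and 9 of 242 (3.72%, 1.71 to 6.94) in those with an unclear hashtag. The intervals of WT lung and Prf1-/- lung did not overlap at full depth. With each cell thinned to 1500 UMIs, for which 1 cell of Prf1-/- lung was too shallow, the share was 1.55% (0.935 to 2.41) in WT lung, 1.05% (0.603 to 1.70) in Prf1-/- lung and 0 of 385 in bone, and the lung intervals overlapped. With at least 1500 genes per cell the shares were 5.04%, 1.20% and 0, so WT lung stood above Prf1-/- lung in each of these settings, by different amounts. Without the S100 limit they were 4.24%, 1.91% and 0.260%.

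**Figure D1:**
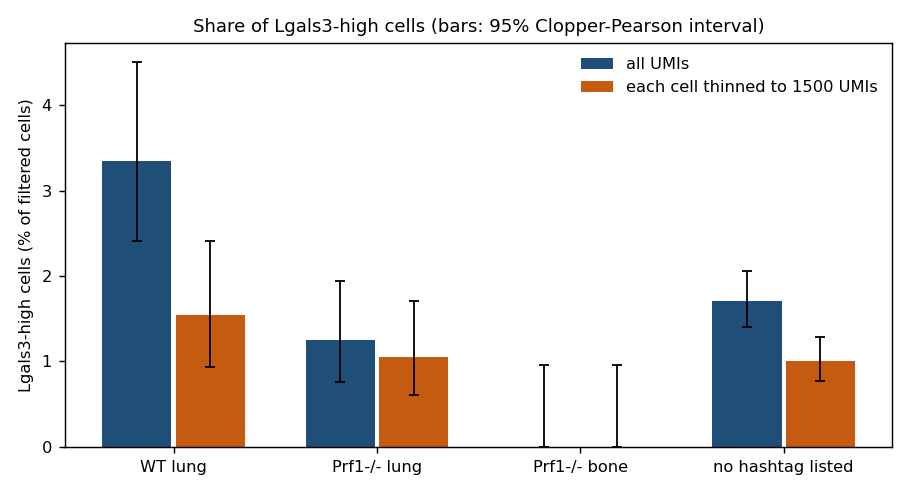
Share of Lgals3-high cells, in percent of the filtered cells of each hashtag group, at full depth (blue) and with each cell thinned to 1500 UMIs (orange); lines are exact 95% intervals for counting error. WT lung is highest at 3.34% and falls to 1.55% with thinning, Prf1-/- lung moves from 1.25% to 1.05%, and Prf1-/- bone has 0 of 385 cells in both.

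Counts were then summed over the cells of each class, and the ratio of CPM (Lgals3-high over Lgals3-0) was taken for the 3925 genes whose mean level equalled at least 20 UMIs in the smaller class. A gene was called at 1.5-fold or more in either direction. The median log2 ratio over these genes was 0.016, so that the scale was centred. In all, 198 genes were called (5.04%), of which 125 were higher (3.18%) and 73 lower (1.86%), and 53.3% of the genes had a ratio above 1. The interval of the ratio, an exact conditional binomial one, lay wholly beyond 1.5-fold for 18 higher genes and 3 lower genes. Of these, 15 and 2 had the same direction in both lungs. The floor of 36.1 CPM was set on the mean of both classes, so 178 genes with less than this in the Lgals3-0 cells passed only through the Lgals3-high cells, and 60 of the 125 higher genes were among them. With the floor on the Lgals3-0 cells alone, an alternative chosen after seeing the data, 3881 genes passed, of which 65 were higher (1.67%), 122 lower (3.14%) and 49.3% above 1. The split between higher and lower genes therefore turned with the floor, and neither side is reported as the larger.

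**Figure D2:**
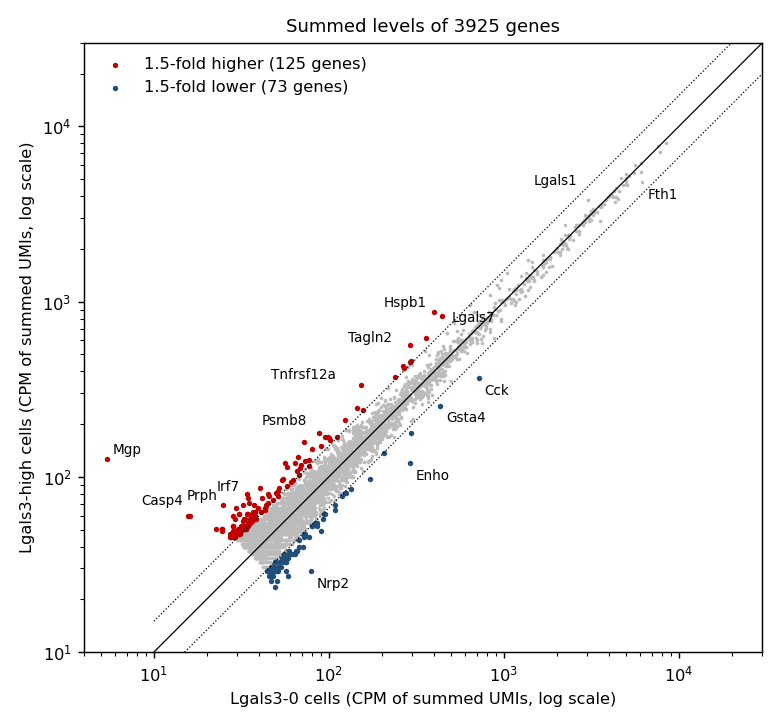
Summed level of each of 3925 genes in the Lgals3-0 cells (x axis) and the Lgals3-high cells (y axis), both in CPM on log scales; the solid line marks equal levels and the dotted lines 1.5-fold. Most genes lie between the dotted lines; 125 lie above them (red) and 73 below (blue), with Hspb1, Tagln2 and Tnfrsf12a above and Enho and Gsta4 below among the genes of higher level.

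The contrast was also tested over the sources, with the hashtag group as a block. Bone had no Lgals3-high cell, so this fit held the 4 sums of the 2 lung groups and 1 residual degree of freedom. edgeR's quasi-likelihood test called 0 of 997 genes at an adjusted p below 0.05 (0%), and 85 genes (8.53%) had an unadjusted p below 0.05. The smallest adjusted p was 0.238, shared by Hspb1, Enho, Tagln2, Tmsb4x and Rhox5. DESeq2 on the same sums called 1 gene, Hspb1, with an adjusted p of 0.00446. The ratios below therefore describe this library, and no gene is reported as tested beyond it.

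Hspb1, Tnfrsf12a and Emp1 were each more than 2 times higher in the Lgals3-high cells. Hspb1, which encodes the small heat shock protein HSP27, a chaperone that binds actin filaments, stood at 1029 CPM in the Lgals3-high and 406 CPM in the Lgals3-0 cells of WT lung, at 693 and 366 CPM in Prf1-/- lung, and at 828 and 407 CPM in the cells not listed. It was higher in all 3 of these groups, and its level in the Lgals3-0 cells of bone was 403 CPM. Its ratio was 2.17 in all cells (1.98 to 2.38), 2.53 in WT lung (2.13 to 2.99) and 1.89 in Prf1-/- lung (1.37 to 2.56). It was detected in 75% of the Lgals3-high cells and 45.6% of the Lgals3-0 cells. Tnfrsf12a encodes Fn14, the receptor of the cytokine TWEAK, and stood at 249 and 119 CPM in WT lung, 403 and 147 CPM in Prf1-/- lung, and 373 and 168 CPM in the cells not listed. Its ratios were 2.09, 2.74 and 2.22 in these groups, with every interval above 1, and its ratio in all cells was 2.19 (1.88 to 2.54). Emp1, a small membrane protein of epithelial and mesenchymal cells that at 34.4 CPM in the Lgals3-0 cells also passed the floor only through the Lgals3-high cells, had a ratio in all cells of 2.21 (1.58 to 3.01), with 1.88 in WT lung and 4.88 in Prf1-/- lung, from 11 and 10 UMIs.

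Casp4 and Prph were rare in the Lgals3-0 cells, at 15.7 and 16.1 CPM, and passed the floor only through the Lgals3-high cells, so that a large ratio was a condition of their being counted. Casp4, which encodes the inflammatory caspase of the noncanonical inflammasome that senses bacterial lipopolysaccharide in the cytosol, stood at 72.1 CPM in the Lgals3-high and 17.4 CPM in the Lgals3-0 cells of WT lung, 48.3 and 19.4 CPM in Prf1-/- lung, and 54.3 and 14.7 CPM in the cells not listed. Its ratio in all cells was 3.8 (2.58 to 5.43), from 33 UMIs in 30 cells. The ratio in Prf1-/- lung, 2.49, rested on 3 UMIs and had an interval of 0.503 to 7.52. Against Lgals3-0 cells matched in depth the Casp4 ratio was 6.19. Prph, the neuronal intermediate filament peripherin, had a ratio of 3.70 (2.51 to 5.28), from 33 UMIs in 18 cells. It was 2.69 in WT lung, 4.07 in the cells not listed and 1.03 in Prf1-/- lung, where it rested on 1 UMI (0.0258 to 5.95).

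Many measured interferon-response genes were somewhat higher in the Lgals3-high cells. Interferons act through JAK kinases and STAT transcription factors, and their target genes carry interferon-stimulated response elements (ISRE) or gamma-activated sites (GAS) near the start. Of 35 genes in the list, 22 passed the floor; 11 of these were called higher, 0 lower, and 21 had a ratio above 1, against 3.18% called higher and 53.3% above 1 over all genes. The median log2 ratio of the list was 0.59, against 0.016 over all genes. Of the 22, Gbp2, Ifi47, Igtp, Irf7, Irgm1, Rtp4 and Zbp1 passed only through the Lgals3-high cells, and 6 of these 7 were among the 11 called, so these counts are partly set by the floor. With the floor on the Lgals3-0 cells alone, 15 genes of the list passed, 5 were called higher, 0 lower, and 14 had a ratio above 1, with a median of 0.46, against 1.67% called higher and 49.3% above 1 over all genes. Over the 22 genes of the main floor, the median was 0.45 within WT lung and 0.97 within Prf1-/- lung. Of these genes 20 and 17 had a ratio above 1 there, against 50.8% and 50.4% of all genes. Among cells not listed, the median over the 22 was 0.54. These values by source include the 7 genes that passed only through the Lgals3-high cells. They are therefore also partly set by the floor.

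Irf7, the transcription factor that amplifies the type I interferon response, stood at 111 CPM in the Lgals3-high and 33.7 CPM in the Lgals3-0 cells of WT lung, 64.4 and 24.2 CPM in Prf1-/- lung, and 57.7 and 22.2 CPM in the cells not listed. It was higher in each of these groups, with a ratio of 2.75 in all cells (1.93 to 3.82). Ifi47, an interferon-induced GTPase, had a ratio of 2.34 in all cells (1.68 to 3.16), 1.70 in WT lung and 6.85 in Prf1-/- lung (3.19 to 13.1). Its Lgals3-high level was 91.7 CPM in WT lung and 161 CPM in Prf1-/- lung, and its Lgals3-0 levels there were 54.1 and 23.5 CPM. Zbp1, a sensor of Z-form nucleic acid, had a ratio of 2.26 (1.58 to 3.15), and Apol9a, an interferon-induced apolipoprotein L gene, one of 2.15 (1.57 to 2.87). Irf7, Ifi47 and Zbp1 passed the floor only through the Lgals3-high cells, so a raised ratio was a condition of their being counted. Abundant members pass at any ratio, so the size of the ratios was not compared between rare and abundant members. Of the abundant ones, Ifitm3, which blocks viral entry, had 1.38 (1.28 to 1.48), and Bst2, the tetherin gene, had 1.46 (1.32 to 1.60). Ifi27 had 1.00 (0.909 to 1.10). Rsad2, at 0.886, was the only member of the 22 with a ratio below 1.

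Some members differed in ratio between the lungs, and these differences were not tested. Iigp1, another interferon-induced GTPase, stood at 105 CPM in the Lgals3-high and 109 CPM in the Lgals3-0 cells of WT lung, and at 242 and 49.9 CPM in Prf1-/- lung. Cxcl10, a T-cell-attracting chemokine, had ratios of 1.26 in WT lung and 3.29 in Prf1-/- lung, with 15.7% of its UMIs over all Lgals3-high cells in 1 cell. The Lgals3-0 cells of WT lung already had a higher level of these genes than those of Prf1-/- lung. Iigp1, Gbp2 and Irgm1 were named after their values were seen.

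The sources were ordered differently by interferon level and by share of Lgals3-high cells. The whole interferon list, with no floor, summed to 4652 CPM in the Lgals3-0 cells of WT lung, 3505 CPM in those of Prf1-/- lung and 4150 CPM in those of Prf1-/- bone. Bone, with 0 Lgals3-high cells, thus lay between the lungs. The relation between these orders was not tested, and each source was a single hashtag group. Within WT lung the sum was 5669 CPM in cells with 1 or 2 Lgals3 UMIs, 6426 CPM with 3 or 4, and 5136 CPM with 5 or more. In Prf1-/- lung these sums were 4507, 5160 and 5086 CPM, and in the cells not listed, where the Lgals3-0 cells had 3638 CPM, they were 4412, 5672 and 4568 CPM. In each of these groups the sum was lowest at 0 Lgals3 UMIs and highest at 3 or 4. The value at 3 or 4 in Prf1-/- lung rested on 7 cells (4155 to 6336 CPM), and its interval held the value at 5 or more. Bone went the other way, at 4150 CPM with 0 Lgals3 UMIs and 3641 CPM (2972 to 4416) in the 8 cells with 1 or 2.

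MHC class I genes and the machinery that feeds them peptides showed a like shift. Which of the MHC class I and interferon lists had the larger median turned with the floor. Of 18 genes in the list 12 passed the floor, 4 were called higher and 0 lower, and the median log2 ratio was 0.53. Over all genes 3.18% were called higher. Tap1 and Tapbp passed only through the Lgals3-high cells. With the floor on the Lgals3-0 cells alone 2 of 10 were called higher, against 1.67% over all genes, with a median of 0.51. Psmb8 encodes a protease subunit of the immunoproteasome and stood at 288 and 145 CPM in WT lung, 274 and 69.6 CPM in Prf1-/- lung, and 119 and 63.9 CPM in the cells not listed. Its ratio was 2.03 in all cells (1.65 to 2.49), and the Lgals3-0 cells of bone, at 286 CPM, reached the level of the Lgals3-high cells of WT lung. H2-K1, a class I heavy chain, had a ratio of 1.56 (1.37 to 1.78), and H2-D1 had 1.41 (1.26 to 1.56). Tap1, a peptide transporter subunit, had 1.75 (1.19 to 2.48), with 2.11 in WT lung and 0.499 in Prf1-/- lung, from 1 UMI (0.0125 to 2.82). B2m, the shared light chain, was at 1.06 (0.967 to 1.16). None of the 7 MHC class II genes passed the floor.

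Promoter sequences are shown for 3 interferon-list genes with an ISRE core match close to the start, beside that of Lgals3. The 3 genes were chosen for this match, and most promoters lack it, so the contrast with Lgals3 is an illustration and not a result. The 80 bases before the annotated start are printed 5′ to 3′ on the strand of the gene, from RefSeq promoters of build GRCm38.p6, with every ISRE core match in capitals. Lgals3 lies at chr14:47373780-47373859 on the plus strand, Apol9a at chr15:77411081-77411160 on the minus strand, Gbp2 at chr3:142620583-142620662 on the plus strand and Irgm1 at chr11:48871421-48871500 on the minus strand.
Lgals3: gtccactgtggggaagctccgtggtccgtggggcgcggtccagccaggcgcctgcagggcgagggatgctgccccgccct
Apol9a: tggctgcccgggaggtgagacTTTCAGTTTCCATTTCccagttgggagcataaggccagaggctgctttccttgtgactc
Gbp2: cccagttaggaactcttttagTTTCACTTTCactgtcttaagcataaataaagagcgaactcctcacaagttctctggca
Irgm1: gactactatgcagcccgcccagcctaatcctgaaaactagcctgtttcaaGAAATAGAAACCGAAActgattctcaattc
Gbp2 has 1 match, which begins 59 bases before the start. Apol9a has 2 overlapping matches, beginning 59 and 53 bases before it, and Irgm1 has 2, beginning 30 and 24 bases before it. The ISRE core searched was GAAA, any 2 bases and GAAA, or on the other strand TTTC, any 2 bases and TTTC, in the 250 bases before the start. It was found in 978 of 32851 promoters (2.98%) and in 107 of the 3164 genes tested that had a promoter in the table (3.38%). Of the 22 interferon-list genes that passed the floor, 16 had a promoter and 11 of those held the core, as did 7 of the 9 called members with a promoter. The GAS motif TTCNNNGAA, which reads the same on both strands and can share its TTC or GAA with an ISRE core, was searched separately. It was found in 7.02% of promoters, in 198 of the 3164 genes tested (6.26%) and in 3 of the 16 interferon-list genes. The 80 bases printed for Lgals3 held no ISRE core, which says only that these letters are not in those bases. The result for Lgals3 over the 250 bases is not given here. The ratios of the genes shown were 2.15 for Apol9a, 2.13 for Gbp2 (1.5 to 2.95) and 2.00 for Irgm1 (1.37 to 2.82). Gbp2 and Irgm1 passed the floor only through the Lgals3-high cells.

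**Figure D3:**
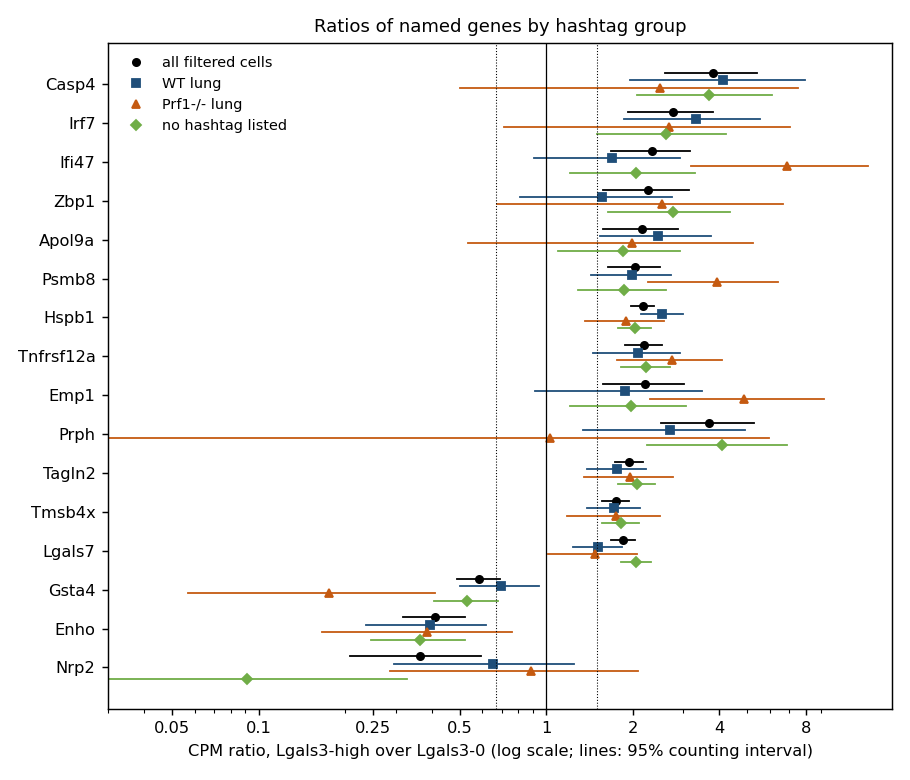
CPM ratio (Lgals3-high over Lgals3-0, log scale) of 16 genes in all filtered cells and in WT lung, Prf1-/- lung and the cells with no hashtag listed; lines are 95% counting intervals and the dotted lines mark 1.5-fold. Hspb1, Tnfrsf12a, Tagln2 and Tmsb4x lie above 1 and Enho below 1 in every group, while the Prf1-/- lung values of Casp4, Irf7 and Prph rest on 4 UMIs or fewer and have wide intervals.

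Actin-binding genes were split. Tagln2, transgelin 2, an actin-bundling protein, stood at 511 and 289 CPM in WT lung, 548 and 279 CPM in Prf1-/- lung, and 631 and 305 CPM in the cells not listed. Its ratio was 1.94 (1.73 to 2.18). Tmsb4x, thymosin beta 4, which holds monomeric actin, stood at 649 and 376 CPM, 499 and 286 CPM, and 652 and 359 CPM in the same groups, with a ratio of 1.75 (1.56 to 1.94). Both genes were higher in each of the 3 groups. The remaining 19 of the 21 measured members of the actin and actomyosin list were not called, with Actb at 0.995 (0.953 to 1.04) and Actg1 at 1.04 (0.982 to 1.10), and the median log2 ratio of the list was 0.08.

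The dedifferentiated and mesenchymal list had medians (log2) of 0.71 in the cells not listed and 0.31 and 0.32 in WT lung and Prf1-/- lung. Of its 20 members 6 passed the floor, Emp1 only through the Lgals3-high cells, and 3 were called higher, against 3.18% over all genes. These were Emp1, Ahnak at 1.78 (1.43 to 2.19) and Tubb3 at 1.53 (1.13 to 2.04). Sparc, a secreted matrix protein, had 1.40 (1.30 to 1.5), and Vim, the mesenchymal intermediate filament vimentin, had 1.22 (1.16 to 1.28). Ahnak, a large scaffold protein, was at 2.29 in the cells not listed, 1.95 in Prf1-/- lung and 0.891 in WT lung. Among annexins, calcium-dependent membrane-binding proteins, 1 of 6 was called, Anxa7 at 1.53 (1.02 to 2.20), which passed only through the Lgals3-high cells, and Anxa1 stood at 1.36 (1.12 to 1.65). The annexin median was 0.40 in all cells, 0.01 in WT lung and 0.10 in Prf1-/- lung.

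Immediate-early and stress genes had a median log2 ratio of 0.22, and 15 of the 17 measured members lay above 1. Over all genes 53.3% lay above 1 and 3.18% were called higher. Besides Hspb1, 4 members were called higher: Atf3 at 1.76 (1.27 to 2.38), Ier3 at 1.72 (1.38 to 2.11), Jund at 1.55 (1.36 to 1.76) and Junb at 1.54 (1.28 to 1.83), which encode stress-induced and AP-1 factors and an early-response survival protein. Dnajb1, an HSP40 co-chaperone of the heat shock response, went the other way, at 0.635 (0.448 to 0.874), and Hspa8 was at 1.02 (0.961 to 1.08). Fosb, an AP-1 factor, was at 0.972 over all cells but at 2.20 in WT lung (1.07 to 4.09) and 2.44 in Prf1-/- lung (0.781 to 5.83). Its level in the Lgals3-0 cells was 203 CPM in bone and 32.8 CPM in WT lung, and the part of the sources in its pooled ratio was not tested.

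Other galectins and S100 genes moved unevenly. Lgals7, galectin-7, stood at 721 and 476 CPM in WT lung, 548 and 372 CPM in Prf1-/- lung, and 957 and 465 CPM in the cells not listed. Its ratio was 1.85 (1.68 to 2.04) in all cells, 1.52 and 1.47 in the lungs and 2.06 in the cells not listed. Lgals1, the abundant galectin-1, had 1.27 (1.21 to 1.32), while Lgals9 was at 1.08 (0.799 to 1.44) and Lgals8 at 1.08 (0.681 to 1.63). Of the galectin list 1 of 5 measured members was called higher and 0 lower. Of 14 measured ligands and partners of galectin-3, including Cd44, Lamp1, Itgb1 and Lgals3bp, 0 were called, with ratios from 0.869 for Itgb1 to 1.25 for Cd9. Among S100 genes that the rule did not use, S100a10, the annexin A2 partner, was at 1.56 (1.37 to 1.77), S100a11 at 1.34 (1.16 to 1.54) and S100b, a neural crest gene, at 0.601 (0.420 to 0.834). Ctsb, the lysosomal protease cathepsin B, was at 1.48 (1.31 to 1.67), and of 20 measured lysosome genes 1 was called, Ctsa at 1.53.

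Enho had the lowest ratio among genes with at least 20 UMIs in the Lgals3-high cells. Enho, which encodes the secreted peptide adropin, stood at 125 CPM in the Lgals3-high and 316 CPM in the Lgals3-0 cells of WT lung, 129 and 334 CPM in Prf1-/- lung, and 102 and 280 CPM in the cells not listed. It was lower in each of these groups, with a ratio of 0.411 (0.317 to 0.523), and it was detected in 26.7% of the Lgals3-high cells against 46.9%. Gsta4, a glutathione transferase that detoxifies lipid aldehydes, had a ratio of 0.583 (0.490 to 0.689), with 0.699 in WT lung and 0.175 in Prf1-/- lung. Its level in the Lgals3-0 cells of bone was 759 CPM, against 403 CPM in those of WT lung. Nrp2, the semaphorin and VEGF co-receptor neuropilin 2, had 0.364 in all cells (0.207 to 0.592), from 16 UMIs. It was lowest in the cells not listed, where the ratio was 0.0909 on 2 UMIs (0.0110 to 0.329), and it was 0.652 in WT lung and 0.887 in Prf1-/- lung. Ppargc1a, a coactivator of mitochondrial genes, was at 0.506 (0.289 to 0.825).

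Cck, the gene of the peptide hormone cholecystokinin, had a pooled ratio that did not hold within WT lung. It stood at 308 and 235 CPM in WT lung and at 48.3 and 295 CPM in Prf1-/- lung, where the Lgals3-high cells had 3 UMIs. The Lgals3-0 cells of bone had 3462 CPM. The pooled ratio was 0.509 (0.440 to 0.584), but it was 1.31 in WT lung (0.956 to 1.76), 0.164 in Prf1-/- lung (0.0337 to 0.480) and 0.916 when stratified over the lungs, and 30.2% of the Cck UMIs of the Lgals3-high cells lay in 1 cell. The pooled value was not read as a difference of Cck between the classes.

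Energy metabolism and iron storage genes lay slightly below 1. Of 13 measured glycolysis genes, 0 had a ratio above 1 and 1 was called lower, Pfkl at 0.633 (0.426 to 0.906), a phosphofructokinase subunit. Over all genes 53.3% lay above 1 and 1.86% were called lower. Pkm, pyruvate kinase, was at 0.703 (0.630 to 0.782), with 0.705 in WT lung, 0.857 in Prf1-/- lung and, among the cells not listed, 0.657, and Gapdh was at 0.904 (0.866 to 0.943). The median log2 ratio of the list was -0.18, and 6 of the 13 genes were above 1 in Prf1-/- lung, against 50.4% of all genes there. Mitochondrially encoded genes had a median of -0.22 with 0 of 11 called, and 25 nuclear genes of oxidative phosphorylation had a median of -0.05 with 0 called. Fth1, the ferritin heavy chain, was at 0.780 (0.750 to 0.810), from 4791 against 6143 CPM. It was below 1 in WT lung (0.804), Prf1-/- lung (0.698) and the cells not listed (0.724).

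Pigment genes were nearly level over all cells but lower in WT lung. Of 21 measured members 0 were called higher and 1 lower, Rab27a at 0.571 (0.338 to 0.906), a GTPase of melanosome transport. The median log2 ratio was -0.04 in all cells, -0.21 in WT lung and -0.04 in Prf1-/- lung. In the lungs 5 and 8 of the 21 lay above 1, against 50.8% and 50.4% of all genes. The summed level of the list had a ratio of 0.839 in WT lung (0.805 to 0.874) and 0.965 in Prf1-/- lung (0.908 to 1.02). Dct, an enzyme of melanin synthesis, was at 0.808 (0.768 to 0.849), with 0.655 in WT lung and 0.956 in Prf1-/- lung, and Slc24a5, a melanosomal cation exchanger, was at 0.726 (0.613 to 0.854). Pmel stood at 0.973 (0.928 to 1.02), Tyrp1 at 1.03 (0.979 to 1.09) and Gpnmb at 1.26 (1.18 to 1.34). S-phase genes (19 measured) and G2 and M phase genes (18 measured) had medians of 0.12 and -0.04, with 0 called higher in either. The lungs went opposite ways: the summed G2 and M phase level had a ratio of 0.873 in WT lung (0.767 to 0.991) and 1.40 in Prf1-/- lung (1.19 to 1.64). In Prf1-/- lung 13 of the 18 measured genes lay above 1, against 50.4% of all genes. The summed S-phase level had a ratio of 1.25 in WT lung (1.11 to 1.40) and 0.970 in Prf1-/- lung (0.779 to 1.19). At least 1 UMI of the G2 and M phase genes was found in 65.3% of the Lgals3-high and 67.1% of the Lgals3-0 cells.

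**Figure D4:**
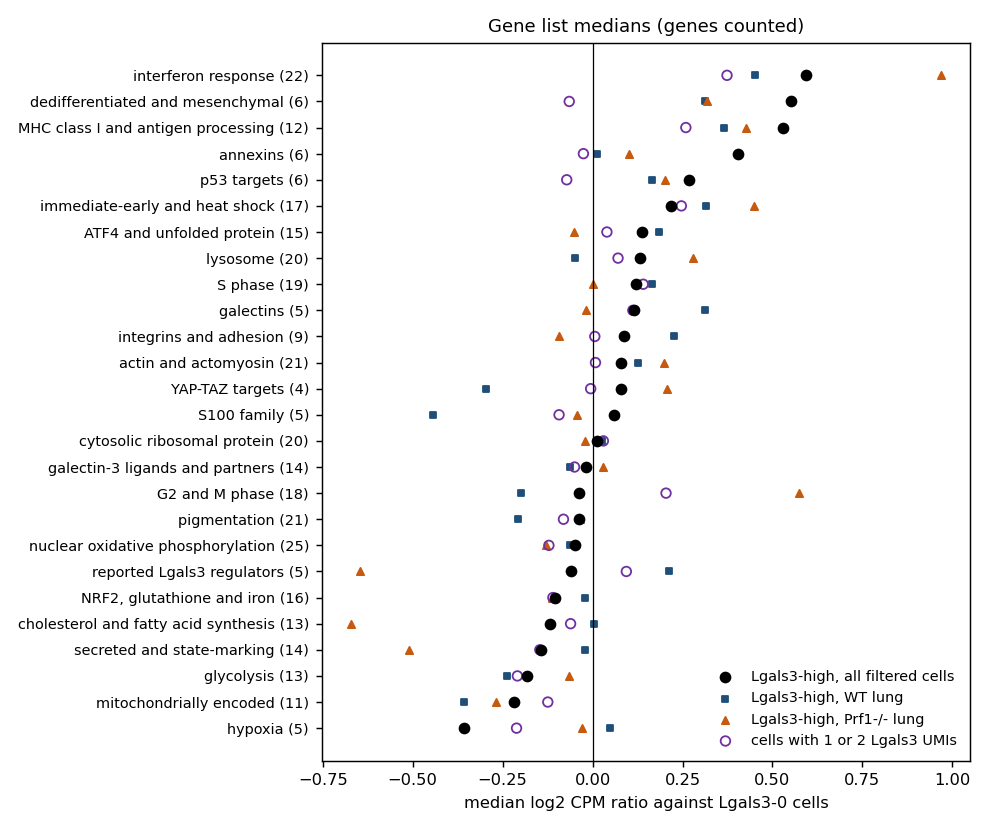
Median log2 CPM ratio against the Lgals3-0 cells for each gene list with at least 4 genes past the floor (their number in brackets): all Lgals3-high cells (black), WT lung (blue), Prf1-/- lung (orange), and cells with 1 or 2 Lgals3 UMIs (open circles). The interferon response, MHC class I and dedifferentiated lists are highest at 0.59, 0.53 and 0.55, and in cells with 1 or 2 UMIs the last of these lies below 0.

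Levels in cells with 1 or 2 Lgals3 UMIs, which the rule did not use, were compared with the Lgals3-0 cells to see which genes had a graded level. In all comparisons the cells with 1 or 2 UMIs were held to the S100 limit, which left 335 and 100. The Lgals3-0 cells were not held to it. In the cells with 1 or 2 UMIs 0.459% of the same genes were at least 1.5-fold higher, 0.331% lower, and 52.4% above 1. From 0 over 1, 2, and 3 to 4 up to 5 or more Lgals3 UMIs, Hspb1 stood at 400, 537, 651, 802 and 919 CPM. Lgals7 stood at 445, 618, 670, 770 and 870 CPM, Tagln2 at 290, 372, 499, 505 and 610 CPM, and Tnfrsf12a at 154, 184, 210, 277 and 383 CPM. In these pooled sums each of the genes was lowest at 0 and highest at 5 or more. Within WT lung, Prf1-/- lung and the cells not listed, Hspb1 and Tnfrsf12a kept that order, but Tagln2 in Prf1-/- lung was highest at 3 to 4 (794 CPM, against 450 CPM at 5 or more). Lgals7 in Prf1-/- lung was 372, 656, 340 and 630 CPM at 0, 1 or 2, 3 to 4, and 5 or more, and in the cells not listed it was highest at 3 to 4 (987 against 937 CPM). Enho ran the opposite way in the pooled sums, at 290, 169, 135, 122 and 117 CPM. Within each of these groups it was highest at 0 but did not fall steadily. At 0, 1 or 2, 3 to 4, and 5 or more it was 316, 130, 147 and 93.7 CPM in WT lung. In Prf1-/- lung it was 334, 136, 284 and 67.5 CPM, and in the cells not listed 280, 179, 50.2 and 137 CPM.

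Some interferon and antigen-processing genes were highest at 3 to 4 Lgals3 UMIs. Irf7 stood at 25, 37.8, 52.6, 93.7 and 48.7 CPM over the same 5 levels, Ifi47 at 34, 58.6, 62.4, 126 and 42.2 CPM, and Psmb8 at 87.9, 135, 158, 269 and 107 CPM. All 3 peaked at 3 to 4 Lgals3 UMIs and were lower at 5 or more, and their ratios for cells with at least 5 UMIs were 1.95, 1.24 and 1.22. Other members did not share this peak: Zbp1 was at 65.2 CPM at 3 to 4 and 68.2 CPM at 5 or more, Bst2 at 758 and 750 CPM, and H2-D1 at 631 and 685 CPM. The measured MHC class I genes summed to 3629 CPM at 3 to 4 and 4771 CPM at 5 or more in Prf1-/- lung, where 7 and 12 cells gave these values. WT lung supplied 24 of the 81 cells with 3 or 4 UMIs and 17 of the 95 with 5 or more, and its part in this course was not tested beyond the sums by source given above. Emp1, at 34.4, 31.8, 29.6, 61.1 and 87.6 CPM, and Ahnak, at 94.5, 92.4, 95.3, 122 and 204 CPM, were flat up to 2 UMIs and higher only from 3.

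**Figure D5:**
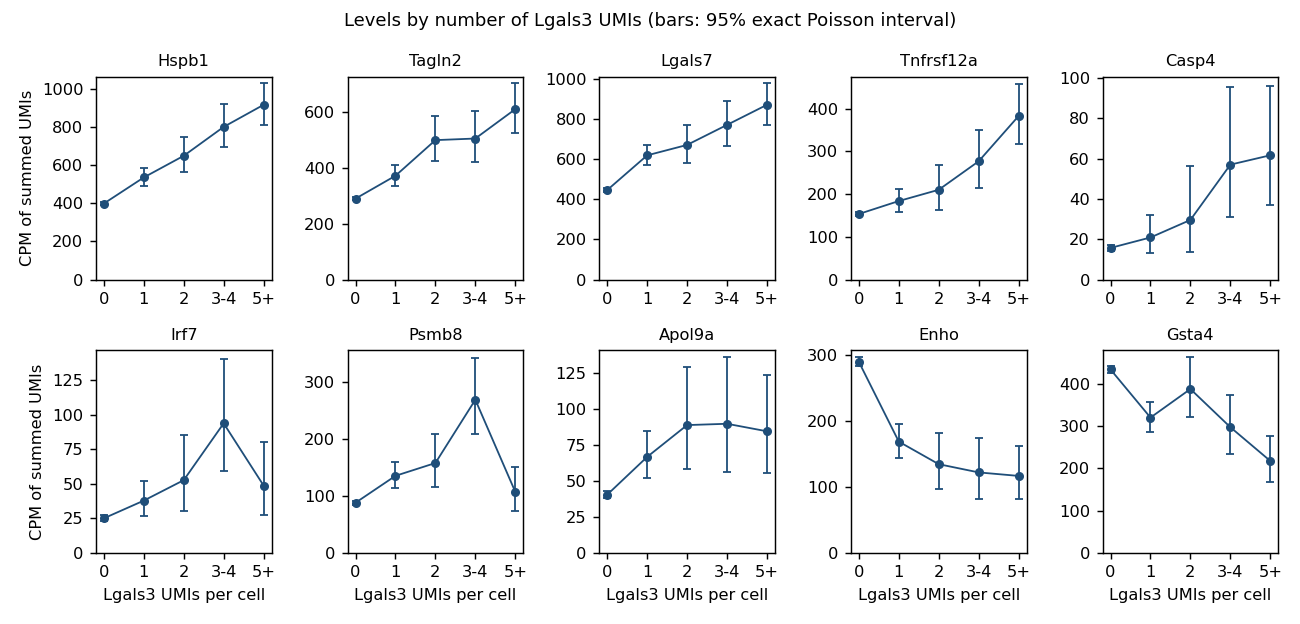
Summed level (CPM, axis from 0) of 10 genes in cells with 0, 1, 2, 3 to 4, and 5 or more Lgals3 UMIs (8923, 335, 100, 81 and 95 cells); bars are exact 95% Poisson intervals. Hspb1, Tagln2, Lgals7 and Tnfrsf12a are highest at 5 or more, Irf7 and Psmb8 peak at 3 to 4, and Enho and Gsta4 are highest at 0.

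The Lgals3-high cells varied widely among themselves. The summed level of the 22 interferon-list genes ran from 408 to 22380 CPM per cell, with a median of 3652 CPM, against a median of 2725 CPM in 528 Lgals3-0 cells matched in depth. The 10% of Lgals3-high cells with the most UMIs of these genes held 30.7% of them, and the same fraction of the matched Lgals3-0 cells held 32.1%. Hspb1 was found in 132 of the 176 cells and in 49.2% of the matched Lgals3-0 cells, and Tagln2 likewise in 132 of 176 and 46.4%. Casp4 was found in 30 of 176 cells and 14 of 528. Tmsb4x was found in 78.4% of the Lgals3-high and 49.8% of the matched cells, but in 74.1% of the Lgals3-0 cells of bone, so a high share of this gene was not restricted to cells with Lgals3.

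The gene with the largest ratio of all rested on a few cells. Mgp, matrix Gla protein, an inhibitor of calcification made by cartilage and vessel cells, had a ratio of 23.4, but its 70 UMIs lay in 3 cells with 42, 27 and 1. The first of these cells was from WT lung and the others were not listed. The cells with 42 and 27 Mgp UMIs also held 4 and 3 UMIs of Acan, the cartilage proteoglycan aggrecan, which was at 0 in all 8923 Lgals3-0 cells. They carried 8 and 6 of the 12 melanoma markers, at 3751 and 2514 UMIs in total. The part of another cell's RNA in these barcodes was not tested. Mgp was named after its values were seen, as were Crip1, a LIM-domain gene at 2.19 (1.75 to 2.72) with 0.942 in WT lung and 3.20 in the cells not listed, and Ddx58, the RNA sensor RIG-I, at 1.97 (1.51 to 2.54).

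The cells not listed in the hashtag library made up 107 of the 176 members. In them 5.78% of the genes were at least 1.5-fold higher and 4.74% lower. These shares were 7.97% and 10.5% in WT lung and 16.5% and 18.6% in Prf1-/- lung, from 41 and 19 Lgals3-high cells. The part of cell number in these shares was not tested. In the cells not listed, 52.4% of the genes had a ratio above 1. Rhox5, a reproductive homeobox gene on the X chromosome, was close to the top of the test and was named after its values were seen. It stood at 990 and 510 CPM in WT lung, 902 and 574 CPM in Prf1-/- lung, and 927 and 655 CPM in the cells not listed, and it was found in 89.8% of the Lgals3-high and 58.7% of the Lgals3-0 cells.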

How the data were processed

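The authors deposited UMI counts, with no normalization: 1 genes-by-barcodes RNA matrix and 1 hashtag matrix of the same pooled run. Per the submitters' processing notes, the tools included Seurat 4.3.0 and Cell Ranger 6.1.2, with build mm10; the file header names Cell Ranger 6.0.0. A cell-level metadata table was not used here. The members, gene lists and rule for named genes were chosen with earlier results of these data known. No doublet caller was run; cells with no dominant hashtag were kept in pooled sums and in no hashtag group. Sums per class were scaled to CPM. Ratios have exact conditional binomial intervals, levels exact Poisson and shares exact Clopper-Pearson intervals, all at 95%, for counting error only; a count of 0 is read against a floor of 3 UMIs. edgeR 4.0.16 (quasi-likelihood test, TMM, Benjamini-Hochberg) and DESeq2 1.42.0 were run in R 4.3.3 on sums per hashtag group and class, for groups with at least 5 Lgals3-high cells and genes with a mean of at least 10 UMIs in the smallest sum. The planned 3 groups became 2. No gene passed the test over sources, so named genes are up to 10 per side with the most extreme ratio, an interval wholly beyond 1.5-fold and the same direction in both lungs, plus the 3 most abundant and 2 most extreme members of each of 28 lists. PCR copies were removed by UMIs. On simulated counts the ratio step (3885 genes) put 50 of 50 genes at 2-fold past 1.5-fold, and edgeR (997 genes) called 49 of 50. Of the unchanged genes, 77 of 3685 also lay past 1.5-fold, and edgeR called 3 of 797. At 0.5-fold edgeR called 44 of 50. The simulated sums held no variation between cells, so they do not cover ratios that rest on few cells. Depth matching took 3 Lgals3-0 cells per Lgals3-high cell. Python 3.11.15 with scipy 1.17.1 was used otherwise.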

Additional observations from a re-analysis of the deposited data

Results flagged for a closer look

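Some barcodes outside the cell filter also held Lgals3. There, 59 barcodes held 3 or more Lgals3 UMIs. Their median was 1334 UMIs and 833 genes. Their summed Lgals3 level was 4208 CPM, which is high by the choice of barcodes with 3 or more UMIs at this depth. At least 3 melanoma-marker UMIs were held by 56 of the 59, and by 6072 of all 6317 barcodes outside the filter. No barcode of the 59 held 2 or more UMIs of the surfactant genes, and 1 held 2 or more of macrophage genes. Over all barcodes outside the filter these shares were 1.20% and 1.19%. The summed level of the G2 and M phase list went opposite ways in the lungs, with a ratio of 0.873 in WT lung and 1.40 in Prf1-/- lung, from 1 hashtag group each. This difference was not tested.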

How the results depend on the processing

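The labels give no replicate numbers, and the hashtag group served as the block. Leaving out a hashtag group leaves 1 source and no residual degree of freedom, so this was not run. The edgeR count of 0 higher and 0 lower genes became 4 and 5 without a count filter, 9 and 6 with depth-matched Lgals3-0 cells, 1 and 0 with the S100 limit on both classes, 2 and 2 without cells holding markers of other types, 6 and 2 at 5 or more Lgals3 UMIs, 17 and 20 with a hashtag call at 5 times the second, and 1 higher with DESeq2; without the source block it was 0 and 0. The 125 higher and 73 lower genes of the summed ratio became 79 and 35 at 5 or more UMIs, 38 and 26 in WT lung alone, 15 and 19 in Prf1-/- lung alone, and 76 and 41 at 1500 genes, with fewer genes tested in each. Lower genes numbered 39 in the cells not listed. Settings chosen after seeing the data gave 49 and 31 stratified over the lungs, 79 higher with those strata matched in depth, and 82 and 144 without the top cell of each class per gene, which by construction takes more from the smaller class, and 65 and 122 with the floor on the Lgals3-0 cells alone, which drops genes that passed only through the Lgals3-high cells. The WT lung share became 1.39% at 5 or more UMIs, 1.55% thinned and 5.04% at 1500 genes. Among lists with a median log2 ratio of at least 0.2 in size and genes named by their ratio, directions reversed for 4 list medians and 2 genes: in cells with 1 or 2 UMIs, annexins at -0.026, dedifferentiated genes at -0.065, p53 targets at -0.072 and Emp1 at -0.14 (log2), in WT lung alone hypoxia genes at 0.049, and over depth-matched lungs Nrp2 at 0.14. The cause was not tested. Of the 18 lists with a smaller median, 13 changed sign in at least 1 setting.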

Other observations

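Of 6 measured p53 targets, 0 were called, with Bax, a pro-apoptotic BCL2 protein, at 1.25 (1.12 to 1.40) and Cdkn1a, the cell cycle inhibitor p21, at 1.34 (1.09 to 1.64). Of 5 measured hypoxia genes, 0 had a pooled ratio above 1, against 53.3% of all genes, and the pooled median log2 ratio was -0.36. This did not hold within the lungs. There the medians were 0.05 in WT lung and -0.03 in Prf1-/- lung, with 3 and 2 of the 5 above 1, against 50.8% and 50.4% of all genes. In the cells not listed, the median was -0.39 with 0 above 1, against 52.4% of all genes. Of 5 measured genes reported to regulate Lgals3, 1 was called, Klf3, a transcriptional repressor, at 0.651 (0.385 to 1.03), and Jun stood at 1.06 (0.948 to 1.18). Of 13 measured genes of cholesterol and fatty acid synthesis, 0 were called, with medians of -0.12 in all cells and -0.67 in Prf1-/- lung. Secreted and state-marking genes had 2 higher and 5 lower of 14 measured (median -0.14), and NRF2, glutathione and iron genes had 0 higher and 1 lower of 16 (median -0.11). Of 15 ATF4 and unfolded protein genes, 9 integrin and adhesion genes, 4 YAP-TAZ targets and 20 cytosolic ribosomal protein genes, 0 were called, with medians of 0.14, 0.09, 0.08 and 0.01, and 1 of 17 NF-kB genes was measured and not called. All of these are ratios of summed CPM in 1 library, with no test.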
